A study of Mus musculus with 3 samples.

Results

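Amino acid transporters are the membrane proteins that carry amino acids, and in some cases close relatives such as taurine and creatine, into and out of cells and lysosomes. The genes described here are those of 7 solute carrier families, taken by their symbol on the array (Slc1a, Slc3a, Slc6a, Slc7a, Slc36a, Slc38a and Slc43a followed by a number). This set was chosen with earlier results of these data known. Each gene was read from the brightest probe without an outlier flag. The rule found 60 genes on 110 probes, of 36335 genes and other named transcripts with such a probe on the array. All but 1 of them, 59 genes, had an unflagged probe. The exception was the GABA transporter gene Slc6a13, whose only probe carried a background flag on 1 array.

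RNA came from mpkDCT cells, a mouse kidney cell line of distal convoluted tubule origin. All groups, the controls included, carried a CRISPR-Cas9 knockout of Cyp27b1, which encodes the enzyme that turns 25(OH)D3 (calcidiol) into 1,25(OH)2D3 (calcitriol). Of these steroids calcitriol binds the vitamin D receptor the more tightly. One group received vehicle, one calcitriol and one calcidiol, each hormone at 1e-07 M for 24 h, in a medium without phenol red, with 2% serum stripped by charcoal, to which the cells had been moved 24 h earlier. Each group was measured on 1 one-colour array, so the differences could not be checked against replicates and carry no p-value. The sources used here do not say whether the knockout line is a single clone, nor what the tag siCT in the sample titles means.

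In the kidney most filtered amino acids are recovered in the proximal tubule, while cells of the distal tubule take up amino acids mainly for their own use. The Slc3 proteins are heavy chains that bring the Slc7 light chains to the membrane, and the Slc7 proteins without a heavy chain carry arginine and lysine. Slc1 and Slc38 proteins move glutamate, glutamine and small neutral amino acids with sodium, Slc6 proteins move neutral amino acids and neurotransmitters with sodium and chloride, Slc36 proteins work with protons, and Slc43 proteins let branched-chain and aromatic amino acids pass by facilitated diffusion. Several of these genes are known targets of ATF4, the transcription factor of the amino acid deprivation response.

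A gene was called detected on an array where the scanner software marked its probe as well above background. The lowest signals so marked were 13.36 (vehicle), 13.82 (calcitriol) and 17.85 (calcidiol), and the share of spots well above background lay between 49.7% and 50.98%. Of the markers of the labelled cell type, Wnk1, Wnk4, Egf and Stk39 were detected on all 3 arrays and Slc12a3, Trpm6, Calb1 and Klhl3 on none. The kidney epithelial factors Pax2 and Pax8 were detected on all 3, whereas Cdh1, Epcam, Krt8, Krt18 and Krt19 were detected on none. A lower signal can come from fewer cells of a kind or from less RNA per cell, and these cannot be told apart here.

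Of the 59 readable genes, 26 were detected on all 3 arrays, which is 44.1% of them, against 45.07% of all genes on the array. A further 5 were detected on 1 or 2 arrays and 28 on none. The Slc38 family, with 7 of 11 genes on all 3 arrays, had the highest share, and the Slc1 family the lowest, with 2 of 7. In the Slc6 family, 6 of 17 readable genes were detected, and in the Slc7 family 7 of 15. The 28 undetected genes had signals between 2.69 and 12.5 with vehicle, between 2.79 and 11.58 with calcitriol and between 3.58 and 12.85 with calcidiol.

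**Figure D1:**
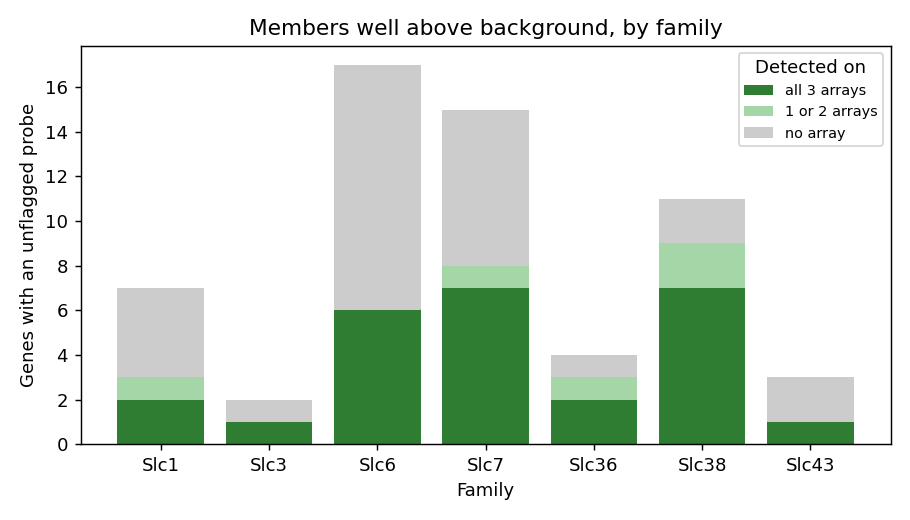
Number of genes (vertical axis) in each of the 7 families (horizontal axis) whose brightest unflagged probe was well above background on all 3 arrays, on 1 or 2 arrays or on none. The Slc38 family has 7 of 11 genes on all 3 arrays and the Slc6 family 6 of 17.

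The undetected genes fall into recognisable kinds. The glutamate transporter genes Slc1a1, Slc1a3, Slc1a6 and Slc1a7 were below background throughout. So were the neurotransmitter transporters for GABA (Slc6a11), noradrenaline (Slc6a2), dopamine (Slc6a3), serotonin (Slc6a4) and glycine (Slc6a5), as well as the brain proline transporter gene Slc6a7, the betaine transporter gene Slc6a12, and Slc6a14, Slc6a16 and Slc6a18. Slc3a1 and Slc7a9, which encode the heavy and light chains of the cystine transporter of the proximal tubule, were also both undetected, with vehicle signals of 2.71 and 3.22. Among the others were Slc7a2, Slc7a4, Slc7a10, Slc7a12, Slc7a13, Slc7a15, Slc36a3, Slc38a5, Slc38a11, Slc43a1 and Slc43a3. A signal below background sets only an upper limit on a level.

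Against vehicle, 1 of the 26 measured genes was at least 2-fold higher with calcitriol, Slc7a3, and 0 were at least 2-fold lower. Over all 16653 genes with a measured difference, the same threshold was passed upwards by 0.961% and downwards by 1.63%. With calcidiol, 0 of 27 measured genes were 2-fold higher or lower, beside 0.853% and 0.144% of 16646 genes. In the direct comparison of the compounds, Slc7a3 was again the only gene of 26 at least 2-fold higher with calcitriol (0.467% of 16499 genes) and 0 were at least 2-fold lower (1.41%). In a list of 26 genes, 1 gene is 3.85%, the smallest share above 0, so these counts do not set the members apart from the array as a whole.

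The medians were close to those of all genes. The median log2 difference of the members was 0.01 with calcitriol, 0.03 with calcidiol and -0.06 for calcitriol minus calcidiol, beside 0.00, -0.01 and 0.00 over all genes measured. With calcitriol 14 members were above 0 and 12 below, and with calcidiol 15 and 12. The figure after ± is a technical error computed by the scanner software for each spot, and it does not include differences between cultures. Its median over the members was 0.21 in each comparison. Of the differences from vehicle, 10 of 26 with calcitriol and 22 of 27 with calcidiol were no larger than this error. The matching shares over all genes were not computed. Over all genes, too, differences were smaller in size with calcidiol than with calcitriol. Median sizes were 0.10 and 0.15 for genes with a signal of at least 200 on both arrays, and 0.21 and 0.26 for dimmer ones.

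**Figure D2:**
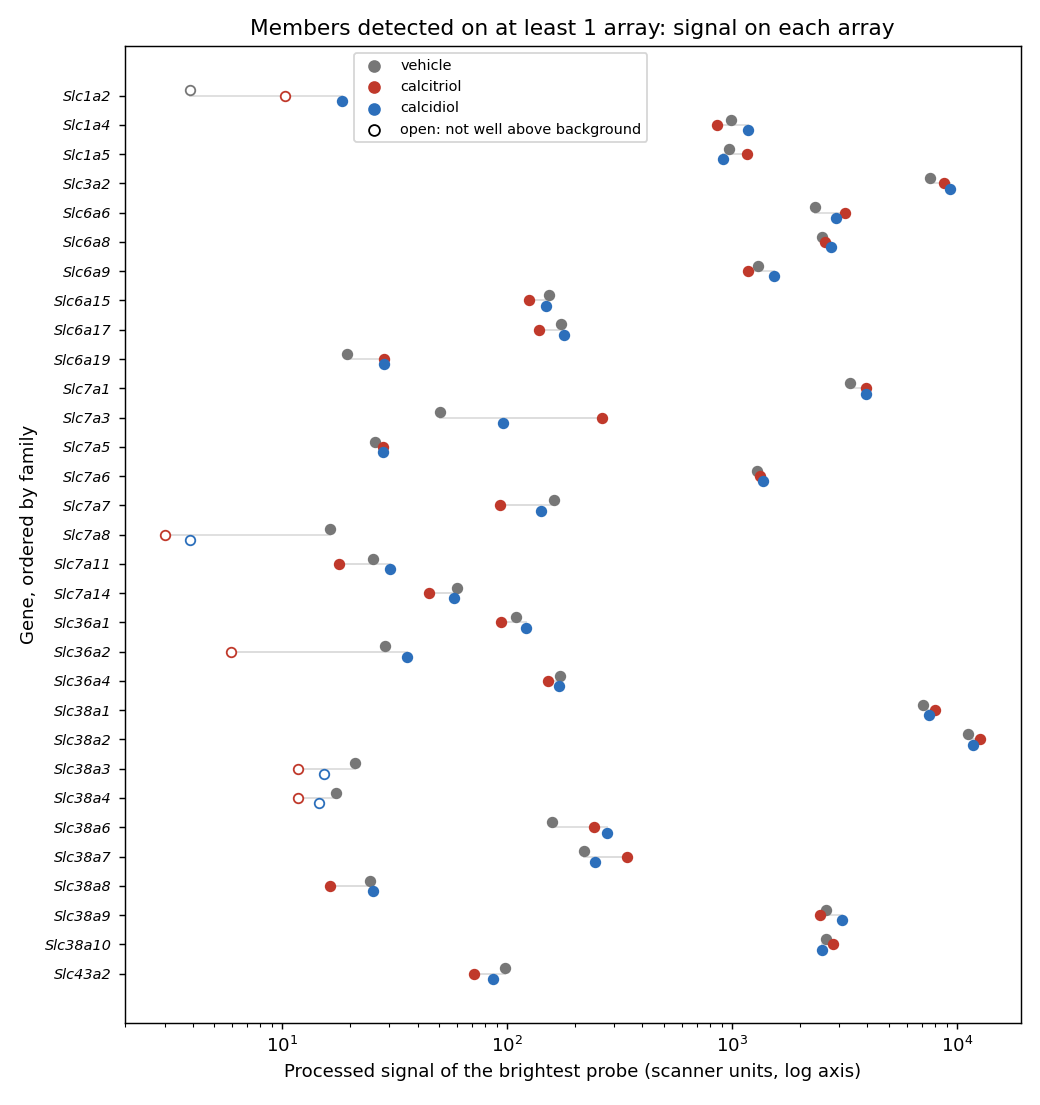
Processed signal (horizontal log axis, scanner units) of the 31 genes detected on at least 1 array, one row per gene in family order, on the vehicle, calcitriol and calcidiol arrays. Open points were not well above background. Slc7a3 is spread most widely among genes detected on all 3 arrays, from 50.5 with vehicle to 264 with calcitriol.

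Slc7a3 encodes a transporter of the cationic amino acids arginine, lysine and ornithine that needs no heavy chain. Its probe, on chromosome X from 98274644 to 98274703 of mm9, gave signals of 50.5 with vehicle, 264 with calcitriol and 96.2 with calcidiol. The gene was thus lowest with vehicle, intermediate with calcidiol and highest with calcitriol. It was 5.11-fold higher with calcitriol than with vehicle, a log2 difference of 2.35 ± 0.22, and 30 of all 16653 genes differed by as much or more in that direction. With calcidiol it was 1.76-fold higher than with vehicle, at 0.82, and the compounds were 2.90-fold apart, at 1.54. Slc7a3 was read from its only probe on the array, so no other probe bears on it, and the vehicle signal was dim. With normexp background correction, which included an added offset of 50 and quantile normalisation, the differences were 1.58, 0.38 and 1.20. An offset of that size is close to the vehicle signal and by itself makes a fold smaller. The share of each step was not tested. The RefSeq promoter table used here had no entry for Slc7a3.

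The sister gene Slc7a1, the cationic amino acid transporter found in most tissues, had signals of 3356 with vehicle, 3931 with calcitriol and 3948 with calcidiol. Both hormone arrays lay slightly above vehicle, at log2 differences of 0.19 ± 0.20 and 0.12, within the technical error. Slc7a14, a related lysosomal protein gene, was at 60.1, 45.1 and 58.1, or -0.45 ± 0.23 with calcitriol and -0.16 with calcidiol. Another Slc7a14 probe was below background on all 3 arrays. Among these cationic carriers the 2-fold threshold was passed by Slc7a3 alone, and that in calcitriol against vehicle and in the direct comparison.

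Slc3a2 encodes the CD98 heavy chain, the partner of most light chains measured here. Its brightest probe (chromosome 19, 8782189 to 8782248, mm9) gave signals of 7563 with vehicle, 8723 with calcitriol and 9310 with calcidiol, log2 differences of 0.17 ± 0.20 and 0.19. The other detected probes of the gene differed from this: one gave 0.00 and -0.44 and the other 0.21 and 0.09. No direction is therefore given for Slc3a2.

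Among the light chains of CD98, Slc7a7 had the lowest value of the members detected on both arrays, in each comparison with vehicle. Slc7a7 encodes the light chain that exports arginine and lysine across the basolateral membrane, and it was read from its only probe (chromosome 14, 54989166 to 54989225, mm9). Its signals were 162 with vehicle, 92.7 with calcitriol and 141 with calcidiol. It was 1.79-fold lower with calcitriol, at -0.84 ± 0.21 on the log2 scale, at -0.31 with calcidiol, and at -0.53 with calcitriol relative to calcidiol. Calcitriol therefore gave the lowest signal, with calcidiol between it and vehicle. Over all genes, 460 had a difference this low or lower with calcitriol.

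Slc7a11 encodes the cystine and glutamate exchanger, which supplies cysteine for glutathione. Its signals were 25.2, 17.8 and 30.2 with vehicle, calcitriol and calcidiol, all near the lowest well above background. The differences were -0.54 ± 0.35 and 0.15, and calcitriol against calcidiol, at -0.68, was the lowest value of the members detected on both of those arrays. The other probes of Slc7a11 were below background on all 3 arrays. Slc7a5, the large neutral amino acid carrier gene that is abundant in growing cells, was also dim by its only probe, with signals of 25.9, 27.96 and 28.03 and differences of 0.08 and 0.00. Slc7a6, the light chain that exchanges arginine for glutamine, was within its technical error, at 0.02 and -0.01 by its brightest probe and 0.04 and -0.04 by another. Slc7a8, a light chain for neutral amino acids, was detected only with vehicle, at 16.3. By its bound it was at least 1.21-fold lower with calcitriol, or -0.27 on the log2 scale. The bound carries no technical error and is smaller than the error of the dim Slc7a11. The calcidiol signal of Slc7a8, 3.88, was not well above background, and the limit there was too high for a fold. Another Slc7a8 probe was below background on all 3 arrays.

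The promoters of the members were searched for 2 motifs, as a description of sequence only. Of the 59 genes, 41 had an entry in the RefSeq table of GRCm38.p6, which holds 250 bases before and 50 after a gene's start. A vitamin D response element, written as a direct repeat of hexamers with 3 bases between them, was found on either strand in 0 of these 41 genes and in 0.04% of all promoters in the table. The core of the amino acid response element to which ATF4 and C/EBP proteins bind, TGATGNAAN, was found on either strand in 3 of 41 genes, Slc1a4, Slc7a7 and Slc7a11, and in 4.5% of all genes in the table. They are shown because they are the members with a match. Each runs 5′ to 3′ on the minus strand of GRCm38.p6, from 250 bases before the start to 10 after it, with the matches in capitals, which on the opposite strand read as the reverse complement.
Slc7a11 (chr3:50443604-50443863): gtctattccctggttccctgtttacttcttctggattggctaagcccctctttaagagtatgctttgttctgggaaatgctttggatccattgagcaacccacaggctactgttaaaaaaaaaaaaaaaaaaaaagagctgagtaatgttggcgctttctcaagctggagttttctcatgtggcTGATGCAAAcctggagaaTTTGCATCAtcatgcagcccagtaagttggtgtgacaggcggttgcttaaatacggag
Slc7a7 (chr14:54417935-54418194): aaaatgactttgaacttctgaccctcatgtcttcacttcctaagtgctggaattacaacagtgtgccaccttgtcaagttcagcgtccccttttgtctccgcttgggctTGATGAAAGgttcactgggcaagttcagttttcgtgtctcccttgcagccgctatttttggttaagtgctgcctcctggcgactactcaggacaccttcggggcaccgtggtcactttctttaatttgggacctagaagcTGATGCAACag
Slc1a4 (chr11:20332704-20332963): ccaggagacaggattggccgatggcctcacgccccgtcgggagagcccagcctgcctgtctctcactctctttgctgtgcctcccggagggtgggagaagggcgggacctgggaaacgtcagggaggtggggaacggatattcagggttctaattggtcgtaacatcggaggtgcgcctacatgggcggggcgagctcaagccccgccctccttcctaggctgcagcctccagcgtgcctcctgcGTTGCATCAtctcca
In Slc7a11 the matches stood on opposite strands and began 66 and 48 bases before the start. The 3 genes were at -0.54, -0.84 and -0.23 with calcitriol, and at 0.15, -0.31 and 0.14 with calcidiol, for Slc7a11, Slc7a7 and Slc1a4 in that order.

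In the Slc38 family, 7 genes were measured. Slc38a2, the sodium-coupled carrier of small neutral amino acids that cells induce on amino acid starvation, had signals of 11171 with vehicle, 12641 with calcitriol and 11754 with calcidiol. The arrays were close to one another, at 0.15 ± 0.20 and -0.04. Slc38a1, its relative for glutamine, was likewise at 0.15 and -0.03. For both genes a dimmer probe gave a value below 0 with calcitriol (-0.21 for Slc38a2 and -0.19 for Slc38a1).

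Slc38a7 encodes a lysosomal glutamine exporter, and its only probe (chromosome 8, 98360074 to 98360133, mm9) gave 220 with vehicle, 340 with calcitriol and 247 with calcidiol. Calcitriol stood apart from the other arrays, at 0.60 ± 0.21 against vehicle and 0.54 against calcidiol, while calcidiol was 0.06 from vehicle. Slc38a6 (chromosome 12, 74454973 to 74455032, mm9) was higher on both hormone arrays by its brightest probe, with signals of 159, 242 and 277 and differences of 0.58 ± 0.21 and 0.69. That spot lies in position 3 counted from the array edge. A probe of the same gene in position 36 gave 0.24 and -0.05, and one in position 9 gave 0.41 and 0.36. Only the calcitriol differences were above 0 by every detected probe.

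Slc38a9, the lysosomal arginine sensor that signals to mTORC1, was at -0.12 with calcitriol and 0.12 with calcidiol, and another probe gave 0.18 and -0.34, the opposite signs. Slc38a10 was at 0.07 and -0.17, and its other probes gave -0.45 and -0.19, and -0.03 and -0.11. Slc38a8 was dim, with signals of 24.5, 16.3 and 25.4, and at -0.62 ± 0.36 with calcitriol and -0.06 with calcidiol. Another Slc38a8 probe was below background on all 3 arrays. Slc38a3 and Slc38a4 were detected only with vehicle, at 21.1 and 17.4. By their bounds they were at least 1.56-fold and 1.29-fold lower with calcitriol and at least 1.28-fold and 1.05-fold lower with calcidiol. On the log2 scale these bounds were -0.65 and -0.37 with calcitriol and -0.35 and -0.08 with calcidiol. They carry no technical error, and that of the dim Slc38a8 was 0.36, so the smaller bounds are not resolved differences.

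The Slc6 family held 6 measured genes. The taurine transporter gene Slc6a6 gave signals of 2349, 3170 and 2891 with vehicle, calcitriol and calcidiol. Vehicle was the lowest of the arrays, and the differences were 0.40 ± 0.20 and 0.19. A second probe gave 0.66 and 0.24, and another, in position 2 from the edge, gave -0.14 and -0.68. The creatine transporter gene Slc6a8 was level, at 0.01 and 0.03, and the glycine transporter gene Slc6a9 was at -0.18 and 0.11.

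Slc6a15 and Slc6a17, carriers of neutral amino acids best known from brain, were at -0.32 and -0.36 with calcitriol and at -0.15 and -0.06 with calcidiol. A second Slc6a17 probe gave -0.44 and -0.19, the same signs. Slc6a19, the apical neutral amino acid transporter of the proximal tubule, was dim, with signals of 19.5, 28.4 and 28.3, and differed by 0.51 ± 0.32 and 0.43. Of 8 proximal tubule markers, Lrp2, Cubn and Aqp1 were detected on all 3 arrays and Slc34a1, Slc5a2, Slc5a12, Slc22a6 and Slc22a8 on none. Their summed signal, not scaled between arrays, was 3284 with vehicle, 6006 with calcitriol and 4845 with calcidiol. Sums of other marker lists went in either direction. Those of the kidney epithelium were 17799, 13715 and 15621, and those of leukocytes 484.4, 490.2 and 604.5. The part of the proximal tubule sum in the values of Slc6a19 and Slc7a7 was not tested.

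In the Slc1 family the measured genes were the neutral amino acid exchangers. Slc1a4, for alanine, serine and cysteine, had signals of 986, 859 and 1172, and Slc1a5, the main glutamine exchanger of dividing cells, 971, 1167 and 912 with vehicle, calcitriol and calcidiol. By signal they ran in opposite orders: Slc1a4 was at -0.23 ± 0.20 and 0.14, and Slc1a5 at 0.23 ± 0.20 and -0.20. Both calcidiol values were within their technical error and the calcitriol values little above theirs, so these orders are not resolved. Between the compounds Slc1a4 was at -0.37 and Slc1a5 at 0.43, each on its only probe. With normexp and quantile normalisation these were -0.73 and 0.19. Slc1a2, a glutamate transporter gene, was detected only with calcidiol, at 18.5. By its bound it was at least 1.28-fold higher there than with vehicle, or 0.36 on the log2 scale, a value that carries no technical error. Another Slc1a2 probe was below background on all 3 arrays.

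The proton-coupled Slc36a1, which carries small amino acids out of lysosomes, was at -0.26 ± 0.22 with calcitriol and 0.03 with calcidiol, and Slc36a4 at -0.21 and -0.12. Their spots are close to the edge, in positions 5 and 3. Another Slc36a1 probe was below background on all 3 arrays. Slc36a2, the proline and glycine carrier (chromosome 11, 54981616 to 54981675, mm9), gave signals of 28.5 with vehicle and 36.03 with calcidiol and was not well above background with calcitriol, at 5.94. It was at least 2.11-fold lower with calcitriol than with vehicle and at least 2.47-fold lower than with calcidiol, the only member at least 2-fold apart by its bound in either comparison. Over the array, 106 and 155 genes were at least 2-fold lower by bound in these comparisons. The other probes of Slc36a2 were below background on all 3 arrays.

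Of the Slc43 family, which carries branched-chain and aromatic amino acids, Slc43a2 was measured. Its brightest probe gave 98.0, 71.0 and 86.6, differences of -0.50 ± 0.22 and -0.29. Another detected probe gave 0.58 and 0.83, so the direction depended on the probe. This was the widest disagreement between probes of a member in both comparisons with vehicle. Over the 11 members with 2 or more detected probes, the second brightest probe had the sign of the brightest in 4 genes with calcitriol and in 6 with calcidiol, and the median range between probes of a gene was 0.34 and 0.25.

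**Figure D3:**
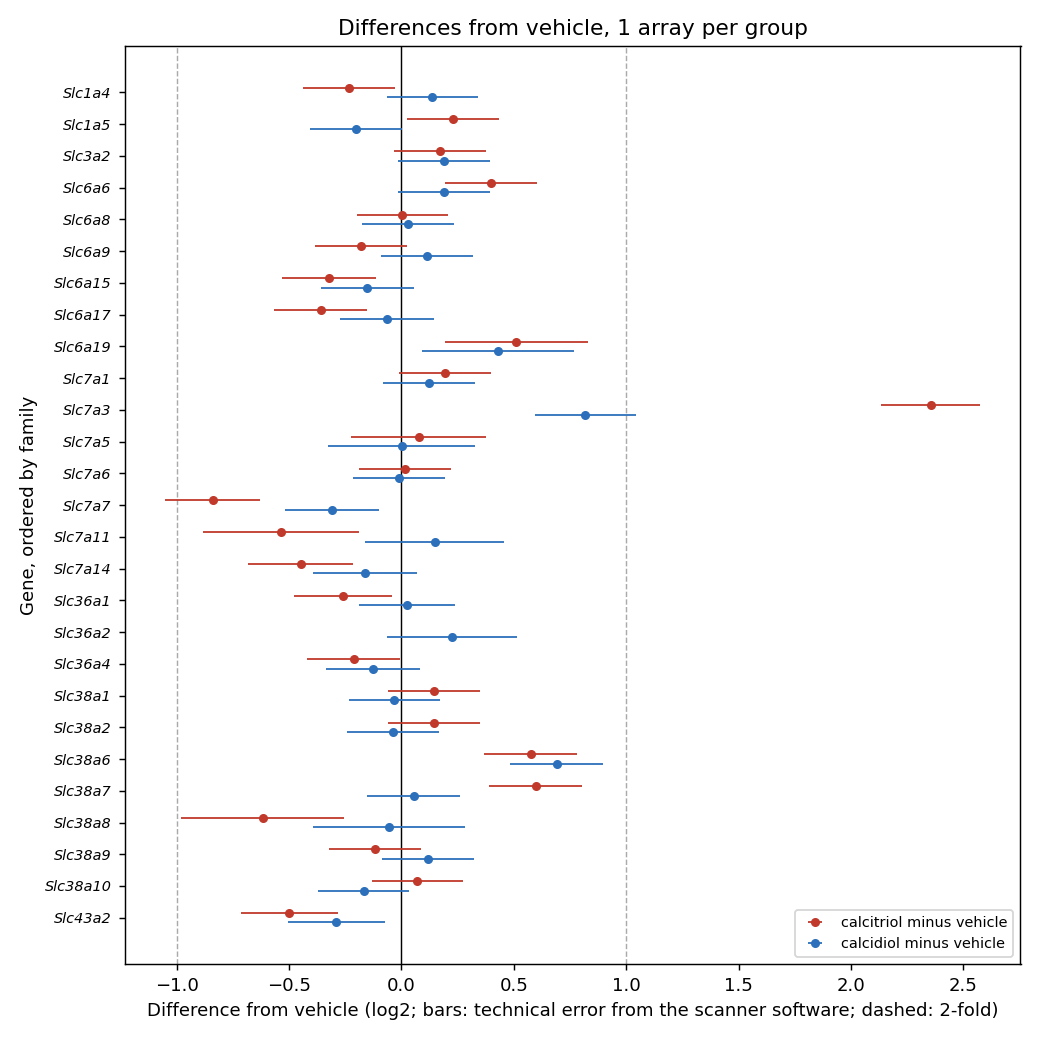
Log2 difference from vehicle (horizontal axis) of the members measured on both arrays, one row per gene, for calcitriol and calcidiol. Bars are the technical error from the scanner software and dashed lines mark 2-fold. Slc7a3 with calcitriol, at 2.35, is the only point beyond a dashed line.

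The differences varied with the signal. With calcitriol, the 13 members with a signal of at least 200 on both arrays had a median of 0.15, with 10 above 0, and the 13 dimmer ones a median of -0.32, with 9 below 0. Over all genes the medians of these classes were 0.02 and -0.08. The corresponding medians of the members with calcidiol were 0.06 and -0.03. Median sizes were 0.50 for dim and 0.17 for bright members with calcitriol, beside 0.26 and 0.15 for all genes.

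Set side by side, of the 26 genes detected on all arrays 9 were above vehicle and 7 below it with both compounds, and 10 had opposite signs. The calcitriol difference was the larger in size in 21 of 26. Both differences use the same vehicle array, so these counts are no measure of a shared response. The share of all genes with the larger difference under calcitriol was not computed. Median sizes over all genes were also larger with calcitriol, at 0.26 for dim and 0.15 for bright genes, beside 0.21 and 0.10 with calcidiol. At 1.5-fold, Slc7a3 and Slc38a7 were higher and Slc7a7 and Slc38a8 lower with calcitriol (3.38% and 6.25% of all genes), and Slc7a3 and Slc38a6 higher (2.84%) and 0 lower (1.33%) with calcidiol. Between the compounds, at 1.5-fold, Slc7a3 was higher (2.16%) and Slc7a11 lower (5.55%) with calcitriol. Several of these calls were lost under other settings. Normexp here includes an added offset of 50 and quantile normalisation. With calcitriol, Slc38a8 fell short of 1.5-fold with median centring (-0.49), quantile normalisation (-0.48), cyclic loess (-0.51), normexp (-0.09), an offset of 32 added to each signal before the logarithm (-0.24) and the deposited value table (-0.47). Slc38a7 fell short with normexp (0.43) and the offset (0.54), and Slc7a7 with normexp (-0.54). With calcidiol, Slc7a3 fell short with normexp (0.38) and the offset (0.56), and Slc38a6 with the mean over probes (0.34) and with its second brightest probe (-0.05), which also reads it when the array edge is left out. Between the compounds, Slc7a11 fell short with median centring (-0.50), quantile normalisation (-0.53), normexp (-0.18), the offset (-0.29) and the value table (-0.53). Other calls were gained among the highest and lowest members. With calcitriol, Slc6a19 passed 1.5-fold with median centring (0.63), quantile normalisation (0.61), cyclic loess (0.62) and the value table (0.61). Slc38a6 did so with the same settings (0.70, 0.61, 0.60 and 0.61). Slc43a2 passed with calcidiol by its second brightest probe (0.83). Between the compounds, median centring added Slc1a5 (0.62) and Slc38a7 (0.73), and normexp added Slc1a4 (-0.73). Calcitriol and calcidiol differ by an additional hydroxyl group on calcitriol, and this was the 1 pair of compounds compared, at equal dose and time.

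**Figure D4:**
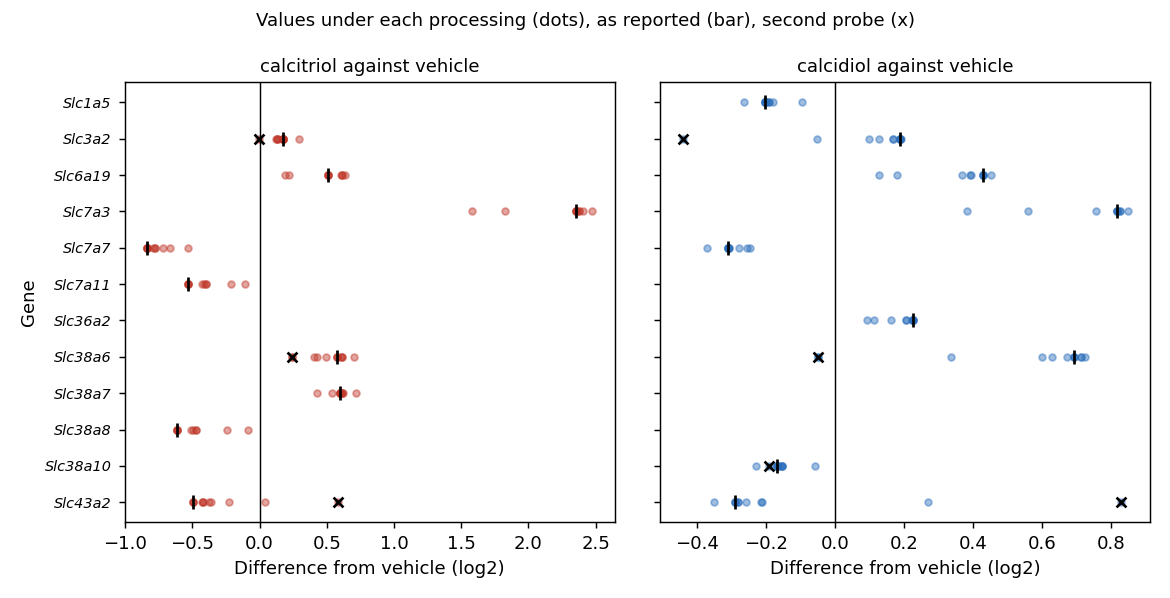
Log2 difference from vehicle (horizontal axes) of the members with the highest and lowest values, with Slc3a2, under each processing of the signals (dots), as reported (vertical bar) and by the second brightest probe (cross). Slc7a3 with calcitriol lies between 1.58 and 2.48 throughout, but it has no second probe. Slc43a2 and Slc3a2 cross 0 with both compounds, and Slc38a6 crosses 0 with calcidiol.

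Other genes of amino acid handling were taken from 5 lists. Over all genes, 0.961% were at least 2-fold higher and 1.63% lower with calcitriol, and 0.853% and 0.144% with calcidiol. In lists of this size a count of 0 does not set the genes apart from the array. By bound, 78 genes of the array were at least 2-fold higher and 106 lower with calcitriol than with vehicle. Relative to calcidiol, 42 were at least 2-fold higher with calcitriol by bound. Of 18 measured carriers of amino acids and peptides outside these families, 0 were 2-fold from vehicle with either compound, and the medians were 0.05 with calcitriol and -0.05 with calcidiol. Mfsd12, a lysosomal cysteine importer, was highest with calcitriol, at 0.38. The extremes with calcidiol were the mitochondrial ornithine carrier gene Slc25a15 at 0.62 and its relative Slc25a29 at -0.50. Slc25a2 was at least 2.15-fold lower with calcitriol by its bound.

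Among 15 measured partners and regulators of transporter traffic, Sgk1, a kinase that raises the surface level of many carriers, was at 1.39 with calcitriol and 1.73 with calcidiol, from a spot at the very edge of the array. Cltrn, which encodes collectrin, the partner that brings Slc6a19 to the membrane in kidney, gave a signal of 38.1 with calcitriol and was not well above background on the other arrays (2.94 and 3.90). It was at least 2.78-fold higher than with vehicle and at least 2.25-fold higher than with calcidiol. The lowest values were those of Nedd4, a ubiquitin ligase, with calcitriol, at -0.35, and of Arl6ip5, with calcidiol, at -0.42. The medians of this list were 0.00 and -0.04.

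For amino acid sensing by mTORC1 and GCN2, 0 of 34 measured genes were 2-fold from vehicle with calcitriol and 0 of 33 with calcidiol, with medians of 0.08 and 0.01. The leucine sensor gene Sesn2, itself a target of ATF4, was lowest with calcitriol at -0.55, and its relative Sesn1 highest at 0.65. With calcidiol the extremes were Sesn1, at 0.19, and Depdc5, at -0.35.

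Of 25 measured genes of ATF4 and its targets, 1 was at least 2-fold higher with each compound, Stc2, a secreted glycoprotein gene, at 1.94 ± 0.32 and 1.52, and 1 was lower with calcitriol, the hormone gene Fgf21, at -1.04 ± 0.22. Stc2 signals were 16.6, 65.3 and 51.4 with vehicle, calcitriol and calcidiol, and Fgf21 signals 108, 53.6 and 77.1. The vehicle signal of Stc2 was near the lowest well above background there, 13.36, so both of its differences rest on a dim value. With calcidiol 22 of the 25 were above 0, at a median of 0.15, and with calcitriol 13, at a median of 0.10, beside 47.73% and 49.26% of all genes above 0. Both medians are below 0.21, the median technical error of the members. The list was chosen with earlier results known and was not read under other processing. Genes on the same arrays are not replicates, so these counts do not establish a shared shift. The shares of all genes past 2-fold are those given above, 0.961% higher and 1.63% lower with calcitriol and 0.853% higher with calcidiol. Fgf21 was also the lowest with calcidiol, at -0.60.

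Among 20 measured enzymes that break down amino acids, 0 were 2-fold from vehicle, at medians of 0.00 and -0.06. Arg2, the mitochondrial arginase, which splits arginine, was not well above background with vehicle, at 10.0, and gave 69.0 with calcitriol and 18.8 with calcidiol. Only the calcitriol signal was well above background, at least 5.05-fold higher than with vehicle and at least 3.87-fold higher than with calcidiol. Bcat1, a branched-chain aminotransferase, was highest with calcitriol among those measured, at 0.56, and Got1 lowest, at -0.32. With calcidiol these were Prodh, at 0.59, and Asl, at -0.30.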

How the data were processed

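Total RNA from 3 cultures carried Cy3 on 1-colour Agilent mouse arrays, 1 array per group. The deposited scanner files hold spot intensity on a linear scale, with a flag of 0 or 1 per spot for outliers and for signal well above background. Background subtraction and detrending within each array were done with Agilent Feature Extraction 10.7.1.1, and probe coordinates are those of mm9, per the file headers. Version 9.5.1.1 stands in the submitters' processing notes. The deposited value table, also intensity, served only as an alternative, and its normalisation is not described in the sources used here.

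Controls and outlier spots were dropped, leaving out 1489 of 56605 probes. From each log2 signal the array's 75th percentile over non-control spots was subtracted (371.1 for vehicle, 379.8 for calcitriol and 400.8 for calcidiol on the linear scale). A difference required the brightest probe to be detected on both arrays. With detection on 1 of them a bound was given: the bright signal over either the lowest detected signal of the dim array or the dim probe's signal, whichever was higher. A bound carries no technical error, so a small bound is not a resolved difference. Genes were named through a RefSeq table of GRCm38.p6 (58.29% of probes by accession), and the members by the array's gene name, so a gene listed under another name is not among them. Promoter sequences are from RefSeq.

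No test was run with 1 array per group; a 2-fold threshold was used, and the number of arrays limits the precision. Counting was tested on simulated data. The members and lists were chosen with earlier results of these data known. Genes given in full were the heavy chains, members at least 2-fold apart and the 4 highest and 4 lowest of each comparison, and from the lists those 2-fold apart and the highest and lowest against vehicle. Some genes that these rules take are not reported here. Alternatives covered scaling, background correction, dim signals, flags, the choice of probe, the array edge, the value table and the threshold. Normexp was always run with an added offset of 50 and followed by quantile normalisation. Software was Python 3.11.15 (numpy 2.4.6, pandas 2.3.3, matplotlib 3.10.9) and limma 3.58.1 in R 4.3.3.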

Additional observations from a re-analysis of the deposited data

How the results depend on the processing

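No paired analysis was possible because each group had 1 array. With 2-fold as the threshold, the counts of members higher and lower were the same under median centring, quantile normalisation, cyclic loess, normexp with quantile normalisation, an offset of 32, outlier spots kept, the mean over probes, the array edge left out and the deposited value table. Without a filter on dim probes, 5 members were higher and 5 lower with calcitriol, 2 and 2 with calcidiol, and 4 and 3 for calcitriol against calcidiol, because undetected signals then enter. Without the dimmest genes (under the 25th percentile) there were 0 higher with calcitriol and 0 between the compounds, as did the second brightest probe, since Slc7a3 drops out by construction. At 1.5-fold there were 2 higher and 2 lower with calcitriol, 2 higher with calcidiol, and 1 lower between the compounds. At 3-fold 0 were higher between the compounds. Median centring moved the median of all genes to 0.12, -0.07 and 0.19 and that of the members to 0.13, -0.04 and 0.13. Under the alternatives that gave a value, Slc7a3 ranged from 1.58 to 2.48 with calcitriol and from 0.38 to 0.85 with calcidiol, and Slc7a7 from -0.84 to -0.54 with calcitriol. With calcidiol Slc38a6 fell to -0.05 without the array edge. Of 294 values of single genes under alternatives, 34 moved by more than their technical error. Many of the 294 could not move. Dropping the filter on dim probes or the dimmest genes leaves the value of a measured gene unchanged. The same holds for the mean over probes in a gene with 1 detected probe. The share that moved is therefore no measure of how stable the values are.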
